A study of Rattus norvegicus with 30 samples.

Results

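Genes that inflammatory macrophages and neutrophils use as effectors were measured in healing rat plantaris tendon. Acod1, Nos2, Arg1, S100a8, S100a9, Clec4e and Trem1 were listed by name, with earlier results of these data known, and 6 of the 7 were among the 13124 genes of the count table. Nos2 was not analysed here. Those 6 members all passed the filter on expression, which left 12558 genes. Each tendon was the right plantaris of a separate rat, taken between the muscle junction and the heel bone, and the rats were 3-month-old male animals of the Sprague Dawley strain. The 3 control rats had no surgery and no compound. The other 27 rats had the plantaris tendon cut through and sutured at once, with the Achilles tendon left intact, and were given GSK2894631A, an inhibitor of hematopoietic prostaglandin D synthase, by gavage in a vehicle, as repeated daily doses. At 7 days (7D) there were 5, 4 and 3 tendons at 0 mg/kg, which is vehicle alone, 2 mg/kg and 6 mg/kg, and at 21 days (21D) there were 5 tendons per dose.

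Neutrophils and newly recruited monocytes are the first leukocytes in injured tissue, and macrophages follow them and stay during scar formation. S100a8 and S100a9 together form calprotectin, an alarmin abundant in neutrophils and in freshly recruited monocytes. Acod1 makes itaconate and Arg1 splits arginine into ornithine and urea, while Clec4e (Mincle) and Trem1 are activating surface receptors that signal through adaptors with immunoreceptor motifs.

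Values are TMM-scaled CPM, which is counts scaled to library size and composition, and they do not allow levels of one gene to be ranked against another because no transcript length was used. Total counts were 12405741 to 49909374 per tendon, and 3 counts corresponded to 0.0562 to 0.245 CPM, a floor that covers counting error only. A gene was called at an adjusted p under 0.05 in the quasi-likelihood test of edgeR, adjusted by Benjamini-Hochberg over the 12558 genes. Some libraries stood apart in their marker sums. In control replicate 4 the 26 measured skeletal muscle markers summed to 468234 CPM, against 246587 and 266159 CPM in the other control tendons, and its 22 macrophage markers summed to 554 CPM, the lowest of all tendons. In 7D 2 mg/kg replicate 3 the 10 measured keratinocyte markers summed to 295 CPM, against 14.1 to 23.2 CPM in the rest of its group. In control replicate 3 the same sum was 110 CPM, against 29.1 and 24.2 CPM in the other control tendons, so results that rest on these libraries are also given without them. Nothing in the labels says that same-numbered tendons of different groups were linked.

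In rn6 the members lie on 5 chromosomes, S100a8 (ENSRNOG00000011557) and S100a9 (ENSRNOG00000011483) on chromosome 2, Arg1 (ENSRNOG00000013304) on 1, Clec4e (ENSRNOG00000061394) on 4, Trem1 (ENSRNOG00000022859) on 9 and Acod1 (ENSRNOG00000009919) on 15. The gene spans run from 540 bases for S100a8 to 81472 bases for Trem1. RefSeq promoter sequences of the GRCr8 build matched 4 of the 6 members, Acod1, S100a9, Clec4e and Trem1. The stretches of 250 bases before the gene start are shown for the 3 matched members of the gene pairs whose levels rose and fell together most closely among tendons, read in the direction of the gene, with the motif match in capitals.
S100a9: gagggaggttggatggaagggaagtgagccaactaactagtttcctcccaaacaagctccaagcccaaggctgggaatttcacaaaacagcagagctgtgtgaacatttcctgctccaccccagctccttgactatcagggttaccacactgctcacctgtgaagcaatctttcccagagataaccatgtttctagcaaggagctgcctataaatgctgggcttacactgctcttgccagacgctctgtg
Acod1: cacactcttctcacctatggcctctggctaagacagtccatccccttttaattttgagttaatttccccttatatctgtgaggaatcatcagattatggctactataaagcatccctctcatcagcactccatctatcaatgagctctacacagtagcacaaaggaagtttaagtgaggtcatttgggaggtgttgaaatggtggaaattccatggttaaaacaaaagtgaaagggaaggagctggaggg
Clec4e: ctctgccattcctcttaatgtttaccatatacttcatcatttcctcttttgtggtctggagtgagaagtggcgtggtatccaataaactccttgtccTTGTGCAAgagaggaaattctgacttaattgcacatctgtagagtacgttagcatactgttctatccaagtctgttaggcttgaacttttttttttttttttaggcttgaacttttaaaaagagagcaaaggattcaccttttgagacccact
They are chr2:178490623-178490872 on the minus strand for S100a9, chr15:86286289-86286538 on the plus strand for Acod1 and chr4:158298468-158298717 on the minus strand for Clec4e. The windows of 300 bases, with 50 after the gene start, were searched on both strands for the NF-kappaB consensus, AP-1 (TGANTCA), C/EBP (TTGCNNAA) and STAT (TTCNNNGAA). One match was found in the 4 promoters, a C/EBP match in Clec4e on the strand opposite to the gene, at bases 98 to 105 of the window. Over 33469 promoters of the same length, 10.6% held the C/EBP motif, 7.51% the NF-kappaB consensus, 7.33% the AP-1 motif and 8.87% the STAT motif. A match is a description of the letters in this window and not of binding.

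All 6 members were higher in 7D 0 mg/kg tendons than in control tendons. Of all genes tested, 35.8% were higher and 35.6% lower in that comparison, so a call in itself was common. The members' median log2 fold change was 2.98 beside 0.05 over all genes tested. Against control tendons 6 members were also called in the 7D 2 mg/kg group, where 35.8% of genes were higher, and 5 in the 7D 6 mg/kg group, where 34.1% were higher. By 21 days the count was 4 in the 0 mg/kg group, 3 in the 2 mg/kg group and 2 in the 6 mg/kg group, beside 32.2%, 33.8% and 30.8% of all genes higher, and 33.7% of genes were lower in the 21D 0 mg/kg group. No member was called lower than in control tendons in any group. All 6 comparisons share the same 3 control tendons, so they are not independent of each other. In whole tendon, fewer cells of a type and less RNA per cell cannot be told apart.

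**Figure D1:**
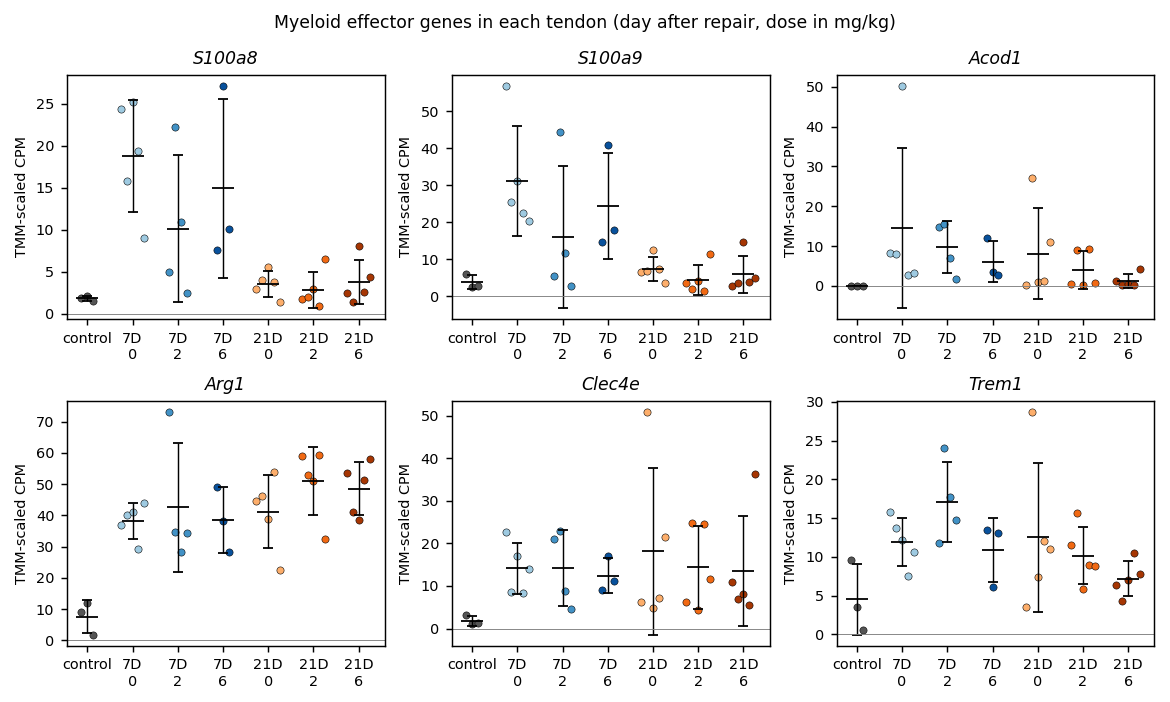
TMM-scaled CPM of each member (linear axis, one panel per gene) in every tendon, by group, with day after repair above the dose in mg/kg. Points are tendons, and bars are the group mean ± SD (n = 3 to 5). S100a8 and S100a9 have their highest group means at 7D, Arg1 and Clec4e stay above all control tendons at both times, and Acod1 has 0 counts in all control tendons and spreads widely in repaired ones.

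The calprotectin genes were high at 7 days and near the control range at 21 days. S100a8 was 1.84, 2.12 and 1.55 CPM in control replicates 2, 3 and 4. The 7D 0 mg/kg tendons had 24.4, 15.9, 25.3, 19.4 and 9.06 CPM of S100a8, all above every control tendon. At 7D 2 mg/kg S100a8 was 4.97, 22.3, 10.9 and 2.51 CPM in replicates 2 to 5, whereas the 3 tendons at 7D 6 mg/kg had 7.58, 27.2 and 10.1 CPM. These groups lay above the control range too, although the lowest 7D 2 mg/kg tendon was close to it. At 21D the S100a8 values were 1.44 to 5.64 CPM at 0 mg/kg, 0.960 to 6.49 CPM at 2 mg/kg and 1.36 to 8.08 CPM at 6 mg/kg, and each of these groups overlapped the control tendons. The 7D log2 fold changes of S100a8 over control tendons were 3.34 ± 0.74 (SE, adjusted p = 0.000278), 2.46 ± 0.73 (adjusted p = 0.00418) and 2.99 ± 0.76 (adjusted p = 0.00127) for vehicle and the rising doses. At 21D it was 0.95 ± 0.67, 0.60 ± 0.67 and 1.02 ± 0.68 at 0, 2 and 6 mg/kg, and the adjusted p was 0.219, 0.433 and 0.189.

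S100a9, the partner of S100a8 in calprotectin, had the same order of time points. S100a9 was 5.95, 2.61 and 2.94 CPM in control replicates 2, 3 and 4, and 56.9, 25.4, 31.1, 22.5 and 20.3 CPM in the 7D 0 mg/kg tendons. In the 7D 2 mg/kg group S100a9 was 5.49, 44.4, 11.7 and 2.70 CPM in replicates 2 to 5, so only 2 of the 4 tendons exceeded the highest control tendon. The 7D 6 mg/kg tendons had 14.7, 40.9 and 17.8 CPM of S100a9, all above control tendons. At 21D the S100a9 means were 7.36 ± 3.25, 4.48 ± 4.04 and 6.00 ± 4.96 CPM (SD, n = 5 each) at 0, 2 and 6 mg/kg, beside 3.83 ± 1.84 CPM in control tendons (SD, n = 3), and the ranges overlapped. The log2 fold change of S100a9 against control was 3.02 ± 0.82 (SE, adjusted p = 0.00206), 2.07 ± 0.81 (adjusted p = 0.0249) and 2.66 ± 0.85 (adjusted p = 0.0079) at 7D, and 0.94 ± 0.75, 0.21 ± 0.74 and 0.63 ± 0.75 at 21D, with no call at 21D. The highest 7D 2 mg/kg tendon for both genes was replicate 3, the library with the highest keratinocyte sum. Without it the S100a9 change at 7D 2 mg/kg was 0.79 (adjusted p = 0.335) and that of S100a8 was 1.73 (adjusted p = 0.031). The S100a9 call at that dose was also lost without control replicate 3, the control tendon with the highest keratinocyte sum (adjusted p = 0.0846) or control replicate 4 (adjusted p = 0.0833). Basal keratinocyte genes in 7D 2 mg/kg replicate 3 included Krt5 at 65.3 CPM and Krt14 at 47.6 CPM. Relations of S100a8 and S100a9 with the keratinocyte sum are given below, and the part of keratinocytes in this tendon's levels was not tested.

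Acod1, the itaconate-producing enzyme, had 0 counts in all 3 control tendons and was counted in all 27 repaired tendons. The 7D 0 mg/kg tendons had 8.40, 8.11, 50.3, 2.70 and 3.28 CPM of Acod1, so replicate 3 set the group mean of 14.6 ± 20.1 CPM (SD, n = 5). At 7D 2 mg/kg Acod1 was 14.8, 15.4, 7.05 and 1.86 CPM in replicates 2 to 5, and at 7D 6 mg/kg it was 12, 3.56 and 2.83 CPM in replicates 1, 4 and 5. The 21D 0 mg/kg tendons had 0.239, 27.0, 0.936, 1.29 and 11 CPM, the 21D 2 mg/kg tendons 0.561, 9.14, 0.359, 9.24 and 0.662 CPM, and the 21D 6 mg/kg tendons 1.27, 0.145, 0.456, 0.207 and 4.21 CPM. At 21D each dose therefore held tendons with under 1 CPM of Acod1 beside tendons far above them. Set against the floor of 3 counts in the shallowest control library, 0.245 CPM, the Acod1 group mean was at least 59.4-fold higher at 7D 0 mg/kg, at least 40.0-fold higher at 7D 2 mg/kg and at least 25.0-fold higher at 7D 6 mg/kg. At 21D the bounds were 33.0-fold, 16.3-fold and 5.13-fold in the same order of doses. These bounds leaned on the highest tendon of each group. Without it they were 22.9-fold, 32.3-fold and 13-fold at 7D and 13.7-fold, 10.9-fold and 2.12-fold at 21D for 0, 2 and 6 mg/kg. One tendon at 21D 0 mg/kg and 2 tendons at 21D 6 mg/kg lay under that floor, with 10, 5 and 9 counts of Acod1 in deeper libraries. The adjusted p of Acod1 was 0.00235, 0.00426 and 0.00872 at 7D and 0.00554, 0.0126 and 0.0607 at 21D, so the 21D 6 mg/kg group did not pass. That miss depended on the method. Of 7 alternative analyses 3 called Acod1 there, among them DESeq2 (adjusted p = 0.000166) and edgeR scaled by library size alone (adjusted p = 0.0364). None of the 8 edgeR fits without a single tendon did, with adjusted p from 0.0503 to 0.165.

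Arg1, the arginase that competes with nitric oxide synthases for arginine, was higher at both times in every dose group. Arg1 was 9.01, 12 and 1.88 CPM in control replicates 2, 3 and 4, and the lowest of all repaired tendons had 22.6 CPM. The group means were 38.3 ± 5.69 (SD, n = 5), 42.6 ± 20.6 (n = 4) and 38.5 ± 10.5 CPM (n = 3) at 7D and 41.2 ± 11.7, 51.0 ± 11 and 48.5 ± 8.46 CPM (n = 5 each) at 21D for 0, 2 and 6 mg/kg. No repaired tendon overlapped the control tendons, while all repaired groups overlapped each other. The highest single value was 73.1 CPM in 7D 2 mg/kg replicate 2. Against control the log2 fold change of Arg1 was 2.29 ± 0.40 (SE, adjusted p = 1.49e-05), 2.45 ± 0.41 (adjusted p = 9.91e-06) and 2.30 ± 0.42 (adjusted p = 3.49e-05) at 7D, and 2.40 ± 0.40 (adjusted p = 1.26e-05), 2.71 ± 0.40 (adjusted p = 2.44e-06) and 2.64 ± 0.40 (adjusted p = 4.71e-06) at 21D. Control replicate 4, with the highest muscle sum, was the lowest control tendon for Arg1. Without it the changes were 1.80 (adjusted p = 9.6e-05) at 7D 0 mg/kg and 1.92 (adjusted p = 7.72e-05) at 21D 0 mg/kg.

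Clec4e, the C-type lectin receptor for mycobacterial cord factor and for a nuclear protein freed by dying cells, was also higher in all 6 repaired groups. Clec4e was 3.21, 1.0 and 1.23 CPM in control replicates 2, 3 and 4. The 7D 0 mg/kg tendons had 22.7, 8.61, 17.0, 8.32 and 13.9 CPM, the 7D 2 mg/kg tendons 20.9, 22.8, 8.91 and 4.50 CPM, and the 7D 6 mg/kg tendons 9.06, 17.0 and 11.3 CPM of Clec4e. At 21D the Clec4e values were 6.31, 50.9, 4.72, 7.13 and 21.5 CPM at 0 mg/kg, 6.20, 24.8, 4.34, 24.6 and 11.7 CPM at 2 mg/kg, and 10.8, 6.87, 8.20, 5.43 and 36.2 CPM at 6 mg/kg. Every repaired tendon lay above the highest control tendon, and the 21D 0 mg/kg tendons differed among themselves by 10.8-fold where the 7D 0 mg/kg tendons differed by 2.72-fold. The log2 fold change of Clec4e against control was 2.94 ± 0.88 (SE, adjusted p = 0.00437), 2.97 ± 0.90 (adjusted p = 0.00501) and 2.75 ± 0.92 (adjusted p = 0.0106) at 7D and 3.30 ± 0.89 (adjusted p = 0.00228), 2.97 ± 0.88 (adjusted p = 0.00432) and 2.88 ± 0.88 (adjusted p = 0.00602) at 21D. Leaving out any single tendon kept all 6 calls.

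Trem1, a receptor that amplifies responses to microbial and damage signals in neutrophils and monocytes, was called in 3 of the 6 repaired groups, 7D 0 mg/kg, 7D 2 mg/kg and 21D 0 mg/kg. It was 9.53, 3.49 and 0.572 CPM in control replicates 2, 3 and 4, a 16.7-fold spread. The means were 12 ± 3.09 (SD, n = 5), 17.1 ± 5.22 (n = 4) and 10.9 ± 4.18 CPM (n = 3) at 7D and 12.5 ± 9.63, 10.2 ± 3.64 and 7.15 ± 2.25 CPM (n = 5 each) at 21D for 0, 2 and 6 mg/kg. Only the 7D 2 mg/kg tendons, at 11.8 to 24.0 CPM, all lay above the highest control tendon. The log2 fold change of Trem1 against control was 1.37 ± 0.57 (SE, adjusted p = 0.0355), 1.89 ± 0.60 (adjusted p = 0.00753) and 1.25 ± 0.62 (adjusted p = 0.0771) at 7D and 1.44 ± 0.58 (adjusted p = 0.0309), 1.14 ± 0.57 (adjusted p = 0.0781) and 0.63 ± 0.56 (adjusted p = 0.331) at 21D. The 7D 2 mg/kg call held without any single tendon, although its adjusted p was 0.0551 with only the compared groups in the fit. Both vehicle calls were lost without some tendons. Without control replicate 4 the vehicle change of Trem1 was 0.83 (adjusted p = 0.188) at 7D and 0.90 (adjusted p = 0.166) at 21D. Without control replicate 3 the adjusted p of Trem1 was 0.108 and 0.0971 in these 2 comparisons. The 7D 0 mg/kg call was also lost without replicate 1 or replicate 2 of that group, and the 21D 0 mg/kg call without its replicate 2.

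**Figure D2:**
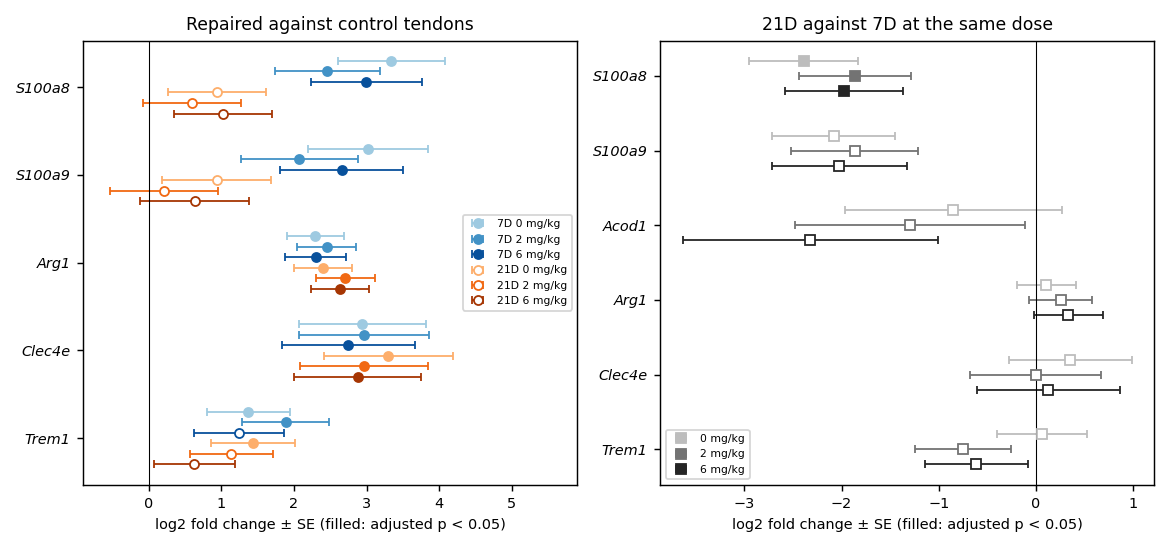
Log2 fold change ± SE from edgeR for each member. The left panel sets the 6 repaired groups against control tendons, without Acod1 because its control tendons had 0 counts, and the right panel sets 21D against 7D at each dose. Filled symbols passed an adjusted p of 0.05. S100a8 and S100a9 lie near 2 to 3.3 at 7D and near 0.2 to 1 at 21D on the left, while Arg1 and Clec4e lie between 2.29 and 3.30 at both times.

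Between 7 and 21 days S100a8 fell at each dose, S100a9 passed the test only averaged over doses, and no other member was called. At 0 mg/kg S100a8 was the 1 member called, with a log2 change of -2.39 ± 0.56 (SE, adjusted p = 0.0156), beside 2.47% of all genes lower and 2.88% higher. Its 7D 0 and 21D 0 mg/kg tendons did not overlap, at 9.06 to 25.3 and 1.44 to 5.64 CPM. At 2 mg/kg S100a8 changed by -1.86 ± 0.58 (adjusted p = 0.0328), beside 5.98% of genes lower, and at 6 mg/kg by -1.97 ± 0.61 (adjusted p = 0.0326), beside 4.55% lower. S100a9 had changes of -2.08 ± 0.63, -1.86 ± 0.66 and -2.02 ± 0.69 at 0, 2 and 6 mg/kg, with adjusted p of 0.0519, 0.0605 and 0.0534, just short of the threshold. Leaving out 7D 2 mg/kg replicate 3 gave -1.12 (adjusted p = 0.22) for S100a8 and -0.58 (adjusted p = 0.591) for S100a9 at that dose.

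Averaged over the 3 doses, a contrast chosen after seeing the data, S100a8 fell by 2.07 ± 0.33 (SE) on the log2 scale (adjusted p = 3.41e-05) and S100a9 fell by 1.99 ± 0.38 (adjusted p = 0.000238). In that contrast 16.8% of all genes were lower and 18.9% higher. Both calls held without any single tendon, with changes of -2.26 to -1.82 for S100a8 and -2.22 to -1.56 for S100a9. The averaged change was -1.49 ± 0.70 for Acod1 (adjusted p = 0.102), -0.43 ± 0.29 for Trem1 (adjusted p = 0.252), 0.23 ± 0.19 for Arg1 (adjusted p = 0.363) and 0.16 ± 0.39 for Clec4e (adjusted p = 0.786). Whether the calprotectin genes changed differently from the other members was not tested. Acod1 passed the threshold in this contrast without 21D 0 mg/kg replicate 2 or 21D 6 mg/kg replicate 5, the highest Acod1 tendons of their groups.

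The question of the compound, whether HPGDS inhibition altered inflammatory gene expression, was put to the members by comparing doses at each time. None of the 6 was called across doses at 7D, where 2.05% of all genes were, and the members' adjusted p ran from 0.767 to 0.99. None was called across doses at 21D, where 0% of genes were, with adjusted p from 0.541 to 0.908. DESeq2 also called 0 members in both, and 0 had an unadjusted p under 0.05. The 7D 2 mg/kg group against 7D 0 mg/kg gave 0 members beside 2.36% of genes, 7D 6 mg/kg against 7D 0 mg/kg gave 0 beside 0.39%, and both doses at 21D gave 0 beside 0%. The dose by time interaction called 0 members and 0.39% of genes, with member adjusted p from 0.927 to 0.994. DESeq2 called 0 members in these comparisons as well, and 1 unadjusted p was under 0.05, that of Acod1 at 21D 6 mg/kg against 21D 0 mg/kg.

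That Acod1 difference was -2.70 ± 1.22 on the log2 scale (SE, adjusted p = 0.759 in edgeR), with means of 1.26 ± 1.71 and 8.10 ± 11.5 CPM (SD, n = 5 each) and overlapping tendons. For S100a8 the 7D differences of the 2 and 6 mg/kg doses from vehicle were -0.88 ± 0.57 (adjusted p = 0.499) and -0.34 ± 0.62 (adjusted p = 0.998). For Arg1 the 7D differences were 0.16 ± 0.32 and 0.01 ± 0.35, and for Clec4e 0.03 ± 0.67 and -0.19 ± 0.74. With standard errors of this size these data could not resolve modest changes in S100a8, S100a9, Acod1 or Clec4e, and a missed threshold does not show that the doses acted alike.

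Ordered by group mean, neighbouring repaired groups overlapped for every member, and the step to control tendons was free of overlap for 3 of the 6. The share of all genes tested with such a step was not computed, so this count only describes the members. Arg1 ran from 51.0 CPM at 21D 2 mg/kg down to 38.3 CPM at 7D 0 mg/kg and then to 7.64 CPM in control tendons, and only the last step was free of overlap. Clec4e ran from 18.1 CPM at 21D 0 mg/kg to 12.4 CPM at 7D 6 mg/kg and then to 1.81 CPM in control tendons, again with only the last step free of overlap. For Acod1 the order led from 14.6 CPM at 7D 0 mg/kg to 1.26 CPM at 21D 6 mg/kg, with overlap between all repaired neighbours and none with the control tendons at 0. S100a8 and S100a9 led with 7D 0, 7D 6 and 7D 2 mg/kg, followed by the 21D groups and the control tendons, and no neighbouring groups were free of overlap. The same absence of separated neighbours held for Trem1, which led with 7D 2 mg/kg.

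Within groups 3 pairs of members were related. Levels were taken as log2 CPM minus the group mean over the 30 tendons, and the 15 pairs of members were tested by permuting tendons within groups 100000 times (two-sided, Benjamini-Hochberg over the 15 pairs). S100a8 and S100a9 had r = 0.90 and Spearman's rho = 0.88, each with p = 1e-05, the smallest that the permutations can give, and an adjusted p of 0.00015 and 7.5e-05. Without the 2 tendons farthest from the median of S100a8 r was 0.85 (permutation p = 2e-05). The r was 0.93 in the 12 tendons at 7D and 0.91 in the 15 tendons at 21D.

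Acod1 and Clec4e had r = 0.82 (permutation p = 2e-05, adjusted p = 0.00015) and rho = 0.82 (permutation p = 1e-05, adjusted p = 7.5e-05). Their r was 0.79 without the 2 tendons farthest from the median of Acod1 (permutation p = 6e-05), 0.56 at 7D and 0.94 at 21D. The tendons with the most Acod1 at 21D, replicates 2 and 5 of the vehicle group, replicates 2 and 4 of the 2 mg/kg group and replicate 5 of the 6 mg/kg group, were also those with the most Clec4e in their groups. Acod1 and Trem1 had r = 0.44 (permutation p = 0.00662, adjusted p = 0.0331) and rho = 0.49 (permutation p = 0.00879, adjusted p = 0.0439). Without the 2 tendons farthest from the median of Acod1 their r was 0.23 (permutation p = 0.0837), so this r leaned on those tendons. It was 0.36 at 7D and 0.68 at 21D with all tendons. Clec4e and Trem1 had r = 0.45 (permutation p = 0.0285, adjusted p = 0.107) and rho = 0.37 (permutation p = 0.0743, adjusted p = 0.279). Pooled over groups, S100a8 and Acod1 had r = 0.01 (permutation p = 0.953) and rho = 0.05 (permutation p = 0.808), and S100a9 and Acod1 had r = -0.12 (permutation p = 0.548) and rho = -0.14 (permutation p = 0.52). These values pool opposite signs, since r with Acod1 was 0.41 for S100a8 and 0.38 for S100a9 at 7D and -0.20 and -0.44 at 21D. With Clec4e the r at 7D was 0.61 for S100a8 and 0.70 for S100a9, above the 0.56 of Acod1 and Clec4e at that time, and at 21D it was -0.13 and -0.33. Pooled, S100a8 and Clec4e had r = 0.12 and rho = 0.09 (permutation p = 0.599 and 0.668), and S100a9 and Clec4e had r = 0.09 and rho = -0.0032 (permutation p = 0.682 and 0.989). The difference between 7D and 21D was not tested.

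**Figure D3:**
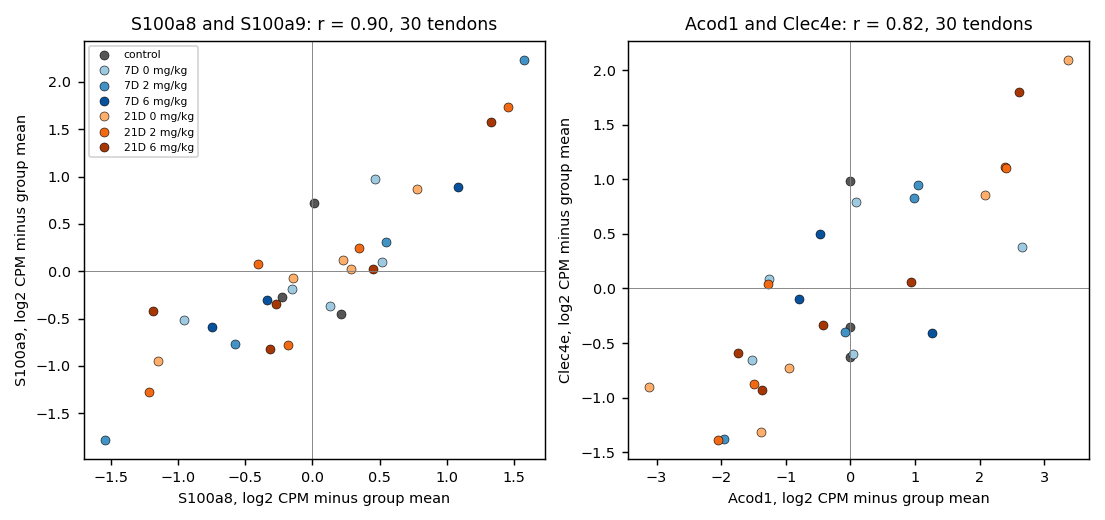
Log2 CPM minus the group mean in 30 tendons for S100a8 against S100a9 (left, r = 0.90) and Acod1 against Clec4e (right, r = 0.82), coloured by group. Each point is a tendon. The 3 control tendons sit at 0 on the Acod1 axis because their counts were 0.

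The genes most alike to each member over the 30 tendons were taken among the 12558 genes, as a description with no test. For S100a8 they were S100a9, the neutrophil collagenase Mmp8 (r = 0.85) and Ifit1bl (r = 0.79), and for S100a9 they were S100a8, Ifit1bl (r = 0.86) and Mmp8 (r = 0.83). Acod1 was most like Il4i1, an amino acid oxidase of antigen-presenting cells (r = 0.90), Tnip1, which restrains NF-kappaB signalling (r = 0.89), and Hcar2, the niacin receptor (r = 0.88). Clec4e was most like Malt1 (r = 0.92), a protease that acts downstream of the Card9 adaptor of C-type lectin receptors, and LOC681325 (r = 0.91) and Ggta1 (r = 0.89). Trem1 was most like Pi4ka (r = 0.90), Ostm1 (r = 0.88) and the Toll-like receptor adaptor Ticam2 (r = 0.87). Arg1 was most like AABR07044375.2 (r = 0.85), Wnt2 (r = 0.84) and Cnot6 (r = 0.83). Spearman's rho was lower for these genes, at 0.80, 0.77 and 0.73 for Trem1 and 0.67, 0.61 and 0.62 for Arg1. All these values include control replicate 4, the lowest control tendon for both members.

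The marker lists of the cells that could carry these genes moved with the repair as well. Of 22 measured macrophage markers, 18 were higher at 7D 0 mg/kg and 15 at 21D 0 mg/kg, with median log2 fold changes of 2.19 and 1.68. Over all genes 35.8% and 32.2% were higher in these comparisons. The sum of the macrophage markers was 554 to 2356 CPM in control tendons, 4438 to 10742 CPM at 7D 0 mg/kg and 2526 to 17864 CPM at 21D 0 mg/kg. Examples were Aif1, at 35.3 ± 14.1 CPM in control tendons (SD, n = 3) and 125 ± 27.5 CPM at 7D 0 mg/kg (SD, n = 5), and Gpnmb, a lysosomal glycoprotein of macrophages, at 57.7 ± 33.6 and 1564 ± 663 CPM. Of 24 neutrophil markers 9 were in the count table, which held none of the granule genes Mpo, Elane, Ltf and Camp. Of those 9, 6 were higher at 7D 0 mg/kg and 2 at 21D 0 mg/kg, and 7 were lower at 21D than at 7D averaged over doses. The shares over all genes were 35.8% higher, 32.2% higher and 16.8% lower in the same order. Mcemp1, a membrane protein of neutrophils and mast cells, was 0.780 ± 0.510 CPM in control tendons, 8.25 ± 2.77 CPM at 7D 0 mg/kg and 2.12 ± 0.751 CPM at 21D 0 mg/kg. Mmp9, the gelatinase of neutrophil granules and of macrophages, was 0.395 ± 0.230, 95 ± 57.2 and 118 ± 90.2 CPM in the same groups.

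Within groups, 24 relations between the 6 members and 4 marker sums were tested by the same permutation, after seeing the data. The macrophage sum went with Clec4e (r = 0.74, rho = 0.71, permutation p = 0.00013 and 0.00022, adjusted p = 0.00136 and 0.0024), with Trem1 (r = 0.73, rho = 0.65, permutation p = 0.00017 and 0.00132, adjusted p = 0.00136 and 0.00634) and with Acod1 (r = 0.68, rho = 0.67, permutation p = 0.00028 and 0.0003, adjusted p = 0.00168 and 0.0024). Without the 2 tendons farthest from the median of the sum these r values were 0.67, 0.63 and 0.55. Lyz2, Gpnmb and Spp1 formed a large part of the macrophage sum, with means of 1903, 1564 and 1429 CPM at 7D 0 mg/kg. The neutrophil sum, of which Mmp9 and Alox5ap formed a large part, went with Clec4e (r = 0.72, rho = 0.76, permutation p = 0.0001 and 7e-05, adjusted p = 0.00136 and 0.00168) and Acod1 (r = 0.60, rho = 0.64, permutation p = 0.00142 and 0.00062, adjusted p = 0.00682 and 0.00372). Without the 2 farthest tendons those r values were 0.79 and 0.62. S100a8 had r = 0.11 with the macrophage sum (rho = 0.09, permutation p = 0.581 and 0.659) and -0.06 with the neutrophil sum (rho = 0.08, permutation p = 0.78 and 0.68). Mmp8, of the same neutrophil list at a mean of 1.58 CPM, had r = 0.85 with S100a8 and 0.83 with S100a9. It was picked among their most alike genes and adds little to the sum, so the sum does not stand for every neutrophil marker. The keratinocyte sum had r = 0.22 with S100a8 (rho = -0.02, permutation p = 0.493 and 0.94) and 0.31 with S100a9 (rho = 0.06, permutation p = 0.346 and 0.804). Without the 2 tendons farthest from the median of that sum r was -0.12 and -0.20 (permutation p = 0.562 and 0.39). No relation of a member with the muscle or keratinocyte sum passed the adjusted threshold. With the muscle sum r was negative for all 6 members. It was -0.49 for Clec4e (permutation p = 0.0334, adjusted p = 0.115) and -0.48 for Acod1 (permutation p = 0.0423, adjusted p = 0.127). For Trem1, S100a8, Arg1 and S100a9 it was -0.39, -0.31, -0.23 and -0.20. Without the 2 farthest tendons r was -0.37 for Clec4e and Acod1 and -0.35 for Arg1 (permutation p = 0.131, 0.119 and 0.00196).

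**Figure D4:**
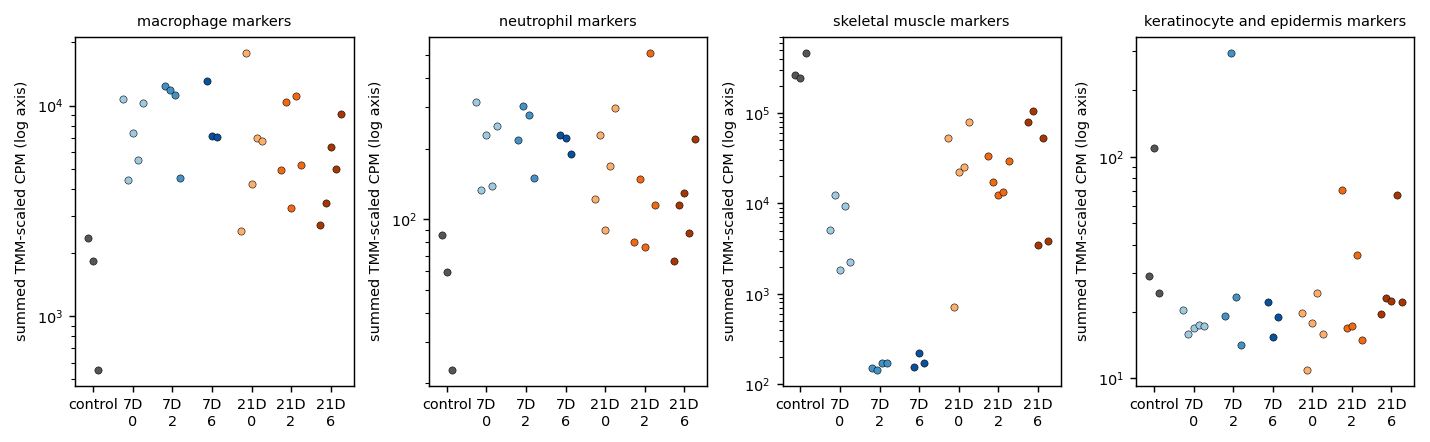
Summed TMM-scaled CPM of 4 marker lists in every tendon (log axes), by group, with day above dose in mg/kg. Each point is a tendon. Macrophage sums lie higher in all repaired tendons, muscle sums are highest in control tendons and lowest in the treated 7D groups, and 1 tendon of the 7D 2 mg/kg group has a keratinocyte sum of 295 CPM.

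Muscle markers moved with the comparison against control tendons. The 26 skeletal muscle markers summed to 246587 to 468234 CPM in control tendons, 1829 to 12352 CPM at 7D 0 mg/kg, 143 to 171 CPM at 7D 2 mg/kg, 153 to 221 CPM at 7D 6 mg/kg and 714 to 105128 CPM at 21D, and all 26 were lower at 7D 0 mg/kg. Removing them before scaling left the number of members called the same against control and between 7D and 21D. Scaling by library size alone moved the median log2 fold change of all genes against control to between 0.51 and 0.64, from between 0.01 and 0.05 with TMM. With library size alone, 6 members were called at 7D 6 mg/kg, 4 at 21D 2 mg/kg and 3 at 21D 6 mg/kg. Calls over the 12558 genes, in either direction, rose as well in these comparisons. They were 9515, 9356 and 8911 with library size alone and 8529, 8678 and 8054 with TMM. The part of muscle in the members' levels was not tested further. Of 14 measured T, B and mast cell markers, 11 were higher at 7D 0 mg/kg, with Cd8a at 18.3 ± 7.84 beside 1.42 ± 0.631 CPM and Cd3g at 7.79 ± 1.64 beside 0.457 ± 0.155 CPM. Of 7 erythroid and blood genes 2 were higher, Ahsp and Klf1, and of 13 tendon fibroblast genes 5 were higher and 3 lower, with Lum and Col3a1 up and Mkx and Fmod down. Of all genes tested, 35.8% were higher and 35.6% lower at 7D 0 mg/kg, and the erythroid and fibroblast counts lay near or below these shares. Of the 9 keratinocyte genes tested, 3 were lower at 7D 0 mg/kg, close to the 35.6% of all genes, among them Tp63 and Krt15. Krt15 was 51.4 CPM in control replicate 3 and at most 0.0472 CPM in the other control tendons.

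Most genes around the receptors were higher after repair. Of 16 measured partners of the TREM and C-type lectin receptors, 13 were higher at 7D 0 mg/kg and 12 at 21D 0 mg/kg, beside 35.8% and 32.2% of all genes, and 0 were lower. Bcl10, Malt1 and Treml1 did not pass at 7D 0 mg/kg. The adaptor Tyrobp (DAP12), through which Trem1 signals, was 49.4 ± 25.5 CPM in control tendons and 258 ± 62.5 CPM at 7D 0 mg/kg (log2 fold change 2.38 ± 0.46, adjusted p = 5.95e-05). The Fc receptor gamma chain Fcer1g, the adaptor of Clec4e, was 40.7 ± 16.5 and 183 ± 49.4 CPM (2.16 ± 0.40, adjusted p = 3.26e-05). Clec4d, a lectin receptor that pairs with Clec4e, was 10.6 ± 11.8 and 46.7 ± 16.7 CPM (2.12 ± 0.68, adjusted p = 0.00771). The related lectins Clec4a3 and Clec4a1 had the smallest adjusted p of this list, with changes of 2.83 ± 0.45 and 2.39 ± 0.39. Between 7D and 21D, averaged over doses, 5 of the 16 were lower and 0 higher, beside 16.8% and 18.9% of all genes.

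Of 17 measured genes around arginine and nitric oxide, 8 were higher and 5 lower at 7D 0 mg/kg, shares near the 35.8% and 35.6% of all genes. The argininosuccinate lyase Asl, which makes arginine, was 19.2 ± 0.951 CPM in control tendons and 34.6 ± 3.84 CPM at 7D 0 mg/kg (log2 fold change 0.85 ± 0.10), and Nostrin, which traffics endothelial nitric oxide synthase, had a change of 1.71 ± 0.23. The neuronal synthase Nos1 had a change of -3.57 ± 0.71 and Nosip, which binds nitric oxide synthase, -0.61 ± 0.11. Arg2, the mitochondrial arginase, was 6.04 ± 2.00 CPM in control tendons and 3.52 ± 0.874 CPM at 7D 0 mg/kg (log2 fold change -0.77 ± 0.23, adjusted p = 0.0047), the opposite direction to Arg1. The endothelial synthase Nos3 was 40.8 ± 17.5 and 62.9 ± 15.7 CPM and was not called (adjusted p = 0.104).

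Genes linked to itaconate, its mitochondrial enzymes and the stress response it acts on, were mostly lower. Of 16 measured, 10 were lower and 2 higher at 7D 0 mg/kg, beside 35.6% and 35.8% of all genes. The succinate dehydrogenase subunits Sdha and Sdhc, parts of the enzyme that itaconate inhibits, had changes of -2.80 ± 0.27 and -2.28 ± 0.23, in a comparison where all 26 muscle markers were lower too. The 2 that were higher were heme oxygenase Hmox1, at 19.1 ± 6.14 CPM in control tendons and 242 ± 103 CPM at 7D 0 mg/kg, and Nfkbiz, at 12.6 ± 4.98 and 64.4 ± 12.6 CPM. Hmox1 was then lower at 21D than at 7D averaged over doses, by a log2 change of -1.17 ± 0.21 (adjusted p = 9.5e-05).

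Of the other S100 genes and calgranulin receptors, 12 were measured and 11 tested. At 7D 0 mg/kg 5 were higher and 1 lower, beside 35.8% and 35.6% of all genes. S100a11 rose from 82.2 ± 35.3 to 318 ± 24.1 CPM and S100a6 from 1122 ± 264 to 1999 ± 307 CPM, while the muscle-expressed S100a1 fell from 17.6 ± 9.93 to 2.43 ± 0.977 CPM. Neither S100a11 nor S100a6 was called between 7D and 21D averaged over doses, with adjusted p of 0.698 and 0.172. Tlr4, a receptor for calprotectin and for lipopolysaccharide, had a log2 change of 0.80 ± 0.28 (adjusted p = 0.0149) at 7D 0 mg/kg. Of 36 tested genes of Toll-like receptor, IL-1 and interferon gamma signalling, 31 were higher and 0 lower at 7D 0 mg/kg. The shares over all genes were 35.8% and 35.6%. The strongest by adjusted p were Hif1a, at 84.1 ± 14.7 CPM in control tendons and 294 ± 38.0 CPM at 7D 0 mg/kg, and the NF-kappaB subunit Relb, at 8.98 ± 1.99 and 26.4 ± 3.48 CPM.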

How the data were processed

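Plantaris tendon RNA of 30 rats was sequenced as single-end reads. The authors trimmed reads with fastp, mapped them to rn6 with STAR, counted reads in exons of Ensembl genes, and deposited raw counts per gene without normalization. Strand use in counting is not given in the sources used here, so overlapping antisense genes cannot be told apart. The deposited table of comparisons by the authors holds log2 fold changes, p-values, FDR and other values such as gene width, of which only chromosome and width were used. The quality removals the authors describe would leave 4 tendons at 7D 6 mg/kg, but the labels hold 3, which were used.

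Of 13124 genes, the 12558 whose mean reached 3 CPM in any of the 7 groups were kept. Counts were scaled by TMM and fitted in edgeR 4.0.16 (R 4.3.3) with 1 mean per group over all 30 tendons. The standard error is the log2 fold change divided by the square root of F. Log2 CPM used a prior count of 2. Total counts of 12405741 to 49909374 per tendon set the precision. The fit was tested on simulated data. Alternatives were RLE size factors, library size alone, no expression filter, DESeq2 1.42.0, a fit of the compared groups, a replicate block, removal of muscle markers and leaving out each tendon. Members and gene lists were chosen with earlier results of these data known. Besides the members, the 2 list genes with the smallest adjusted p in each direction at 7D 0 mg/kg were named. Tyrobp, Fcer1g, Tlr4, Clec4d, Arg2 and Nos3 were named too. Krt5, Krt14, Alox5ap, Lyz2, Spp1, Bcl10 and Treml1 were named after their values were seen.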

Additional observations from a re-analysis of the deposited data

Results flagged for a closer look

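Arg1 in 21D 2 mg/kg replicate 5 was 32.5 CPM, below the 51.0 to 59.5 CPM of the other 4 tendons of that group, a gap of 0.745 of the group's whole log2 range. It was the 1 tendon that stood this far from the rest among 30 sets of 4 or 5 tendons examined over the 6 members, and chance gives about 1 such case in 20.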

How the results depend on the processing

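Changes against control kept their direction for the called members under all 7 alternatives and without any single tendon, and no called value changed sign. The number of members called at 21D against 7D moved most. It was 1 at each dose, beside 672, 1641 and 1643 of the 12558 genes at 0, 2 and 6 mg/kg. With DESeq2 it was 2 at each dose, beside 1496, 2289 and 2221 genes. With a replicate block it was 2, 0 and 2, beside 675, 1524 and 1702 genes. With only the groups compared it was 2, 0 and 0, beside 458, 1953 and 1211 genes. With library size alone it was 2 at 6 mg/kg, beside 1626 genes. Leaving out single tendons gave 1 to 2 at 0 mg/kg, 0 to 2 at 2 mg/kg and 0 to 2 at 6 mg/kg. The S100a8 call was lost at 2 mg/kg without 7D replicate 3 or 4 or 21D replicate 1, 2, 3 or 4, and at 6 mg/kg without 7D replicate 4 or 21D replicate 1, 2 or 4. S100a9 passed at 0 mg/kg without 21D replicate 3, at 2 mg/kg without 7D replicate 2 or 5 or 21D replicate 5, and at 6 mg/kg without 21D replicate 3. The cause was not tested. Trem1 passed at 7D 6 mg/kg, 21D 2 mg/kg and 21D 6 mg/kg without control replicate 2, and at 7D 6 mg/kg without replicate 4 of that group.

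Same-numbered tendons were no more alike in general than others. A median near that of different numbers cannot show that no same-numbered tendons were handled together. Over 76 pairs of same-numbered tendons of different groups the correlation of deviations ran from -0.701 to 0.681. Its median was 0.00685, beside 0.00878 for different numbers. The replicate block moved the members called at 7D against control to 6, 5 and 6 at 0, 2 and 6 mg/kg. Over all genes it called 8887, 8680 and 8390 there, beside 8966, 8757 and 8529 in the main fit. Across doses at 21D, over all genes, edgeR called 0 and DESeq2 138, with 1366 at an unadjusted p under 0.05. Over all genes DESeq2 called 572 across doses at 7D where edgeR called 258, and 181 for the interaction where edgeR called 49. The pairs of members past the threshold were 3 with Pearson's r, Spearman's rho or a prior count of 0.5, and 2 to 4 without single tendons. Groups of 3 to 5 tendons limit these comparisons, and depth limits Acod1, which had as few as 5 counts in a repaired tendon.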
